A study of Mus musculus with 16 samples.

Results

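Wild-type B cells and T cells, sorted from mouse bone marrow, were compared by sequencing of small non-coding RNA. The comparison comprised the 2 libraries labelled with cell type B and the 2 labelled with cell type T, 4 of 16 libraries in all, and small RNA intervals were named by their exact position in GENCODE M21 on the GRCm38 mouse genome. Neither group carried a transgene, deletion or treatment in the labels, and the ages of the mice and the sort gate of each population are not given in the sources used here. The other 12 libraries came in pairs from CLP, CMP, GMP and MEP progenitors and from cells labelled Myeloid and Erythroid. The libraries were cut from a gel at a size meant for small nucleolar RNAs (snoRNAs), which also recovers small nuclear RNAs (snRNAs), parts of rRNA and hairpin or other fragments of microRNA (miRNA) genes. The title of the series names Dlk1-Gtl2 snoRNAs and LT-HSC self-renewal, and B cells against T cells is 1 contrast among the sorted populations.

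C/D snoRNAs carry a C box near the 5′ end and a D box near the 3′ end and guide 2′-O-methylation of rRNA and other RNAs by base pairing, whereas H/ACA snoRNAs guide pseudouridylation. Most mammalian snoRNAs are cut from introns of genes for ribosomal proteins, translation factors or non-coding hosts such as Gas5, so that 1 host transcript can give several snoRNAs. miRNAs are cut from hairpins into short RNAs that repress target mRNAs through a seed, and several of them, such as those of Mir150, Mir155 and Mir181a, are well known in lymphocyte development and activation.

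The C/D snoRNAs on which the comparison turns were taken from GENCODE M21 on GRCm38 and are written 5′ to 3′, each interval spanning the whole printed sequence. Capitals mark the best match to the C box near the 5′ end, the first where matches tie, and the last CTGA as the D box. In Gm24916 another TGATGA follows soon after the marked one, so the marked stretch may not be its C box. The first 4 had a lower level in B cells, scaled to the size of the library, and the next 4 a higher one. Snord57 and Gm23187 lie in the same host gene and moved in opposite directions. Of the 174 C/D snoRNAs tested, 101 had TGATGA starting within the first 25 bases of the annotated transcript and 172 had CTGA within the last 25 bases, searched on the transcribed strand.
Snord17, chr2:144265979-144266216, - strand: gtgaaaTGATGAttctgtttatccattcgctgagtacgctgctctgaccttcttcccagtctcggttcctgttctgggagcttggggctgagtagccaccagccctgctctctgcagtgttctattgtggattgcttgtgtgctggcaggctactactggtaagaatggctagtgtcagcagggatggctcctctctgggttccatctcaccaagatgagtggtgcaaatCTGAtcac
Snord64, chr7:59978808-59978874, - strand: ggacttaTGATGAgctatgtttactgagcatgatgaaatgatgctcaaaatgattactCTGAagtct
Snord2, chr16:23108953-23109021, + strand: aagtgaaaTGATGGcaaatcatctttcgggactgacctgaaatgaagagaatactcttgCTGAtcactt
Gm23246, chr19:8725594-8725660, + strand: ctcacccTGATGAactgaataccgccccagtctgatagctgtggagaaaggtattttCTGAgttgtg
Snord123, chr15:32241853-32241923, - strand: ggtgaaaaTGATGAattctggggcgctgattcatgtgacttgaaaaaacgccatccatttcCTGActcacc
Snord78, chr1:161036984-161037049, + strand: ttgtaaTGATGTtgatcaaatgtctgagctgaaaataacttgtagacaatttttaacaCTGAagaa
Gm24916, chr14:31015148-31015226, - strand: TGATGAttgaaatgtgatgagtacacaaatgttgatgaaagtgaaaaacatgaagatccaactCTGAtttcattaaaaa
Snord82, chr1:86356261-86356330, - strand: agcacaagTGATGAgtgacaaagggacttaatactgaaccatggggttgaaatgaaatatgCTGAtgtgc
Snord57, chr2:130278016-130278087, + strand: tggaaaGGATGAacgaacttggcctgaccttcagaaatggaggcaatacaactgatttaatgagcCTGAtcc
Gm23187, chr2:130277195-130277280, + strand: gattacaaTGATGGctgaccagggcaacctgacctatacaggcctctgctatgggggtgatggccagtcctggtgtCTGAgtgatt

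Mature miRNAs of 12 hairpin genes that were called lower in B cells were taken from RefSeq on GRCm38.p6 and are shown with the seed, bases 2 to 8, in capitals. The counts cover whole hairpin genes, so they do not say which arm was sequenced.
Mir30a (mmu-miR-30a-5p), chr1:23272274-23272295, + strand: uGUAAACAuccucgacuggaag
Mir24-1 (mmu-miR-24-3p), chr13:63301251-63301272, + strand: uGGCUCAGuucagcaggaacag
Mir16-2 (mmu-miR-16-5p), chr3:69009918-69009939, + strand: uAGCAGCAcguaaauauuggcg
Mir148a (mmu-miR-148a-3p), chr6:51269829-51269850, - strand: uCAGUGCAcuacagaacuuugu
Mir342 (mmu-miR-342-3p), chr12:108658680-108658702, + strand: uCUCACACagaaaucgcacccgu
Mir146 (mmu-miR-146a-5p), chr11:43374435-43374456, - strand: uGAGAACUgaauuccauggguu
Mir21a (mmu-miR-21a-5p), chr11:86584120-86584141, - strand: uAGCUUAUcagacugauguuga
Mir182 (mmu-miR-182-5p), chr6:30165962-30165986, - strand: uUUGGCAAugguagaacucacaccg
Mir27b (mmu-miR-27b-3p), chr13:63300760-63300780, + strand: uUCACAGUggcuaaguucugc
Mir29a (mmu-miR-29a-3p), chr6:31062673-31062694, - strand: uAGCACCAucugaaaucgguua
Mirlet7b (mmu-let-7b-5p), chr15:85707325-85707346, + strand: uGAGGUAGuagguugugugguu
Mirlet7c-1 (mmu-let-7c-5p), chr16:77599672-77599693, + strand: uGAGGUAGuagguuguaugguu
The let-7 pair, Mirlet7b and Mirlet7c-1, share 1 seed, and the other 10 mature sequences shown each have a different seed.

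Total counts were 19974768 and 15877524 in the B libraries and 12723900 and 18191612 in the T libraries, and 1235 of the 1885 intervals of the series had at least 1 count in B or T cells. The 2 B libraries had a Spearman correlation of 0.974 and the 2 T libraries of 0.971 over the 749 features tested, and each of the 4 libraries was nearest to its own replicate among all 16. Libraries of B and T cells correlated at 0.946 to 0.949. Levels are given as CPM, counts per 1e6 counts of a library total that was multiplied by its TMM factor, differences as log2 fold changes of B minus T with the standard error (SE), and called features had an adjusted p under 0.05 in the quasi-likelihood test of edgeR, adjusted after Benjamini and Hochberg over all 749 features. Levels are per interval and not per base, so they compare libraries and not genes. Whether paired libraries came from separate animals is not stated, so the p values rest on a spread among libraries that could be technical. In bulk samples fewer cells of a type and less RNA per cell cannot be told apart. Protein-coding markers of B and T cells are not among small RNA counts, so the sort itself could not be checked against them.

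Of the 749 features, 140 (18.7%) were higher in B cells and 71 (9.48%) were lower, and the median log2 fold change was 0.06. Of the 140 higher features 65 were C/D snoRNAs and 28 were snRNAs, and of the 71 lower features 40 were named miRNA genes. The libraries of the 2 cell types did not overlap, with both B libraries above both T libraries, for 249 features (33.2%), and with both B libraries below for 240 (32%). When each class of RNA was scaled on its own, 88 of 623 features were higher (14.1%) and 103 lower (16.5%), and the median became -0.09. DESeq2 gave 127 higher (17%) and 103 lower (13.8%). With the B and T libraries alone 128 of 567 were higher (22.6%) and 151 lower (26.6%), and without GMP, MEP and Erythroid 191 of 719 were higher (26.6%) and 143 lower (19.9%). Without B replicate 1, 85 features were higher, and the count of lower features was 35 without B replicate 1, 19 without B replicate 2, 32 without T replicate 1, 22 without T replicate 2, and 46 without CMP replicate 1 and likewise without Myeloid replicate 1.

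**Figure D1:**
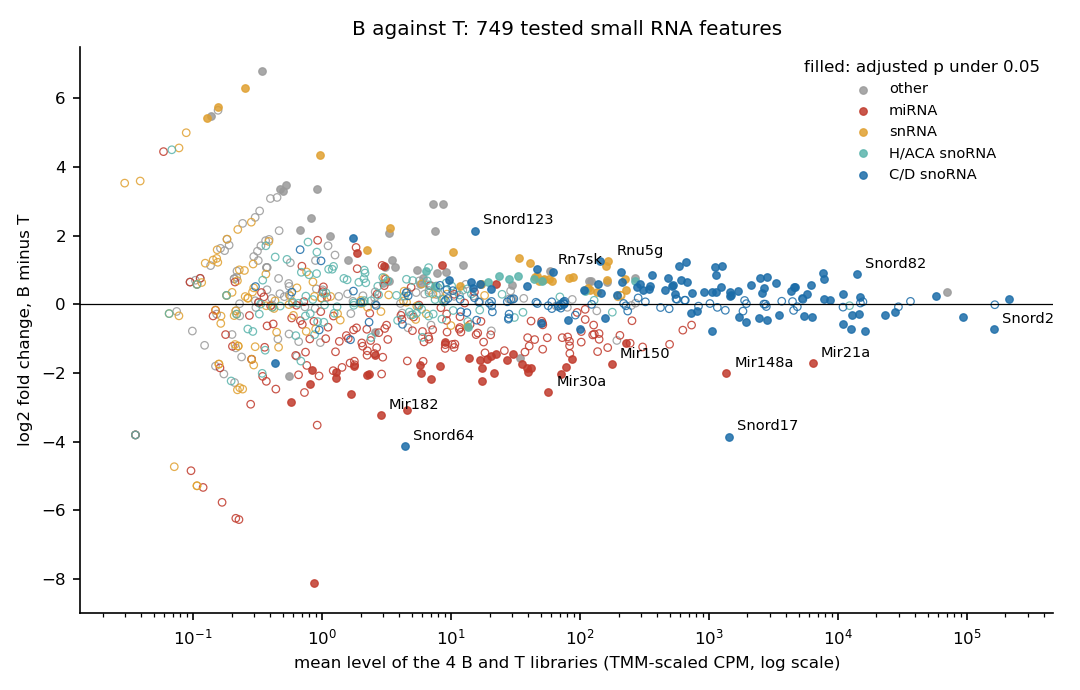
The log2 fold change of B minus T (vertical) is plotted against the mean TMM-scaled CPM of the 4 B and T libraries on a log axis (horizontal) for 749 features, coloured by class, with called features filled. Snord17 and Snord64 lie at -3.85 and -4.13, and most filled miRNA points lie below 0.

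C/D snoRNAs held 91.2% ± 0.586 of counts in B cells and 92.1% ± 0.128 in T cells (SD, n = 2 each), so this class made up most of every library. The interval for 45S pre-rRNA took 6.48% ± 0.653 in B cells and 4.83% ± 0.147 in T cells. H/ACA snoRNAs held 1.13% ± 0.0603 in B cells and 1.09% ± 0.0749 in T cells. Named miRNA genes held 0.678% ± 0.012 in B cells and 1.66% ± 0.0994 in T cells, a ratio of B over T of 0.408. snRNAs held 0.271% ± 0.0108 in B cells and 0.172% ± 0.00423 in T cells, a ratio of 1.57. For C/D snoRNAs, miRNAs, snRNAs and 45S pre-rRNA the libraries of B and T cells did not overlap, and for H/ACA snoRNAs they did. Without the 45S interval C/D snoRNAs held 97.5% ± 0.0547 in B cells and 96.7% ± 0.0152 in T cells. The direction of their difference thus depended on that interval. With 2 libraries a group the smallest two-sided p of an exact permutation test is 0.333, so no share can pass 0.05. The widest 95% Wilson interval of any of these shares reached 0.0149 percentage points to either side, which covers counting error only.

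**Figure D2:**
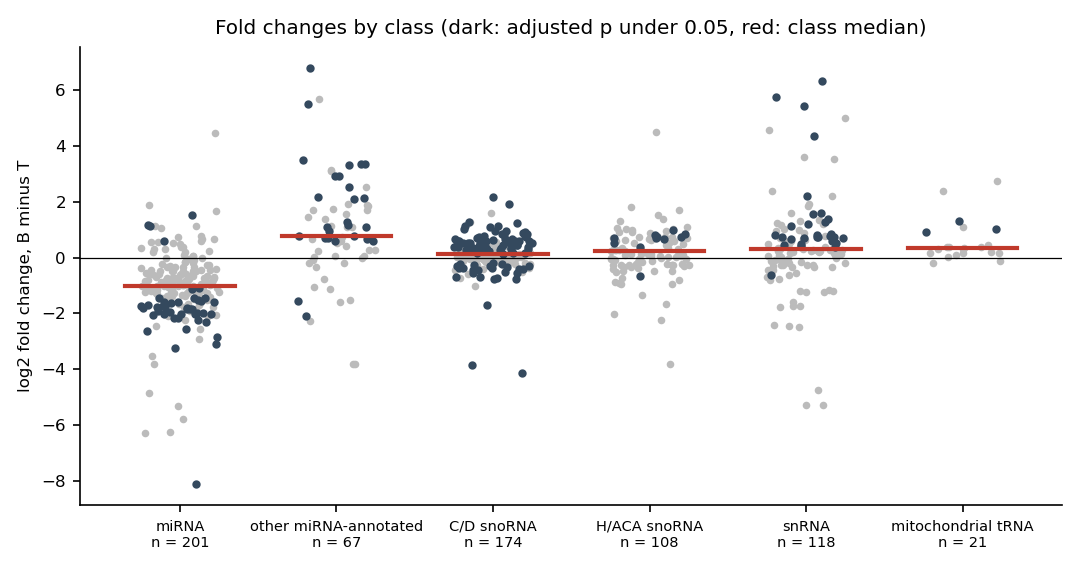
Each point is a feature, placed by class (horizontal) and by its log2 fold change of B minus T (vertical), with called features dark and the class median as a red line. The median of named miRNA genes was -1.02, against 0.12 for C/D snoRNAs, 0.23 for H/ACA snoRNAs and 0.29 for snRNAs.

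Where 18.7% of all features were higher and 9.48% lower, 65 of 174 C/D snoRNAs were higher in B cells and 26 were lower. Their median was 0.12, against 0.06 over all features. By library totals 76 were higher and 23 lower, with RLE size factors 47 and 22, and with DESeq2 52 and 22. Scaled within class, which centres all snoRNAs together and so largely sets their balance, 42 were higher and 50 lower. Without B replicate 1, 37 were higher. The count of lower C/D snoRNAs was 7 without B replicate 2, 9 without T replicate 1 and 12 without T replicate 2. It was 10 without CMP replicate 1, 11 without Myeloid replicate 1, 14 without MEP replicate 2, 15 without Erythroid replicate 1 and 16 without CLP replicate 2. The length of a C/D snoRNA and its log2 fold change had a Spearman correlation of -0.21 over 153 members whose mean reached 10 CPM. At that minimum it was -0.68 over 28 snRNAs, 0.33 over 23 H/ACA snoRNAs and 0.009 over 75 miRNA genes. These are given as a description.

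Snord17 had the largest fall among well-counted features. It lies in an intron of Snx5, and its human counterpart guides methylation of 28S rRNA. It had 178 and 192 CPM in B cells, against 2889 and 2450 CPM in T cells, a log2 fold change of -3.85 ± 0.53 (SE, adjusted p = 0.000263). Both B libraries lay far below both T libraries, and the fall was called under every alternative run and without any 1 library. The other snoRNA tested in Snx5 was not called, and the 2 had a median of -1.94.

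Snord64, which lies in the imprinted Snrpn-Ube3a region, also had less in B cells, at a low level. It had 0.474 and 0.469 CPM in B cells, against 8.13 and 8.62 CPM in T cells, a log2 fold change of -4.13 ± 0.49 (SE, adjusted p = 9.21e-05). T cells had the highest level of the 8 populations, and in the 12 libraries that are neither B nor T the level ran from 0.545 to 2.57 CPM. Of 13 listed snoRNAs of that region, Snord64 alone passed the filter on low counts.

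Snord123 had the largest rise among well-counted features. It lies in an intron of the non-coding host Snhg18. It had 25.1 and 25.3 CPM in B cells, against 5.62 and 5.75 CPM in T cells, a log2 fold change of 2.15 ± 0.18 (SE, adjusted p = 1.04e-05). B cells had the highest level of the 8 populations, ahead of CMP with 18.3 and 17.1 CPM.

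Of the 12 largest rises 6 were C/D snoRNAs, 5 were snRNAs and 1, Gm27773, was an interval typed as miRNA without a miRNA name. Snord78 of Gas5, whose human counterpart guides 28S methylation, had 204 and 199 CPM in B cells, against 73.8 and 95.1 CPM in T cells (log2 fold change 1.26 ± 0.11, adjusted p = 1.11e-05). Gm24916 of Gnl3, the nucleostemin gene, had 926 and 951 CPM in B cells, against 371 and 421 CPM in T cells (1.25 ± 0.09, adjusted p = 2.88e-06). Snord100 of Rps12, whose human counterpart guides 18S methylation, had 793 and 805 CPM in B cells, against 351 and 387 CPM in T cells (1.11 ± 0.09, adjusted p = 1.09e-05). In each of these the B libraries lay above the T libraries by much more than either pair was apart. Gm25744 of 1110038B12Rik and Gm23008 of Ppan, a ribosome biogenesis factor, rose by 1.13 and 1.10. For each of these snoRNAs T cells had the lowest mean of the 8 populations. B cells ranked 7 of 8 from the top for Snord78 and Gm24916, 2 for Snord100 and Gm23008, and 1 for Gm25744. All 12 of the largest rises kept their call under each alternative run for them, from 9 to 11 of 11, and without any 1 library, with a highest adjusted p of 0.0469.

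**Figure D3:**
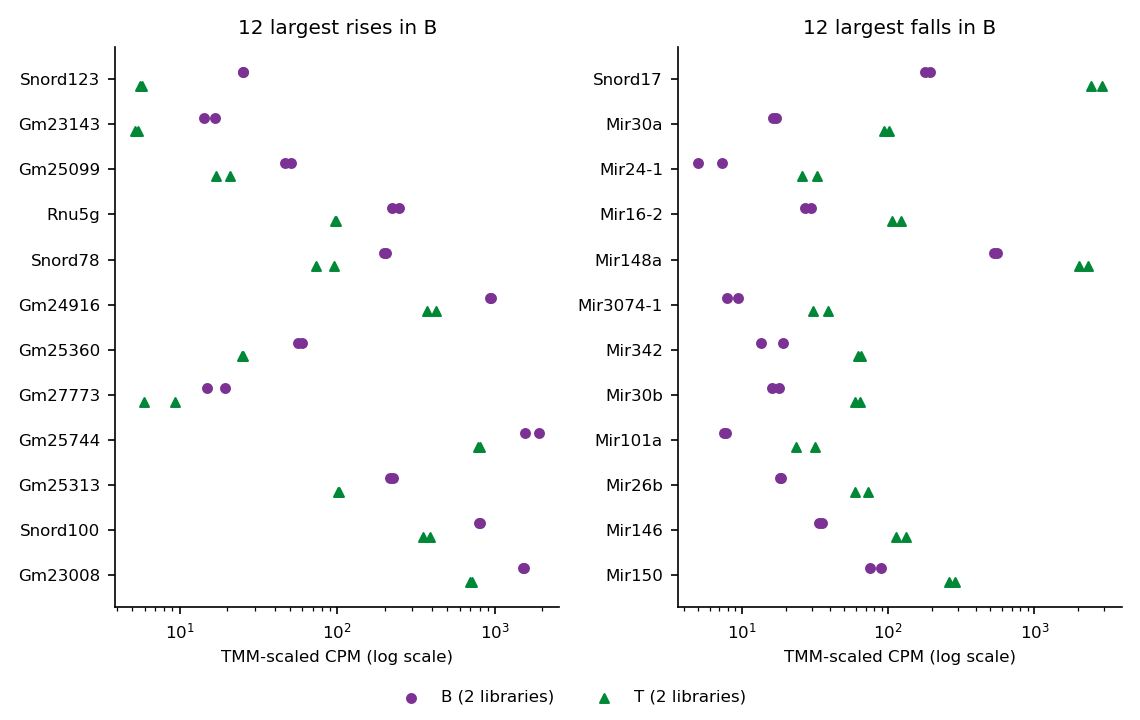
The TMM-scaled CPM (horizontal, log axis) is shown in each of 2 B libraries (circles) and 2 T libraries (triangles) for the 12 largest rises and the 12 largest falls among called features whose mean reached 10 CPM. Snord17 had 178 and 192 CPM in B cells and 2889 and 2450 CPM in T cells, and the remaining falls shown are miRNA genes.

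Among the most abundant features, differences were smaller. Snord2, in an exon of an annotated transcript of Eif4a2, had 118643 and 127973 CPM in B cells, against 192536 and 211117 CPM in T cells (log2 fold change -0.71 ± 0.07, adjusted p = 2.01e-05). Its human counterpart guides 28S methylation. T cells had the highest level of the 8 populations with B cells second. Gm23246 of Snhg1 had 12159 and 12169 CPM in B cells, against 20436 and 20811 CPM in T cells (-0.76 ± 0.08, adjusted p = 2.68e-05). Snord82 of the nucleolin gene Ncl, whose human counterpart guides 18S methylation, had 18185 and 18284 CPM in B cells, against 9542 and 10274 CPM in T cells (0.88 ± 0.05, adjusted p = 1.99e-06). These 3 held under every alternative and without any 1 library. Snord68 fell by 0.37, but not past the threshold without B replicate 2 or T replicate 1 (highest adjusted p 0.0721). The fold changes of Gm23969 and Gm23130, at -0.22 and -0.27, and of Gm26224, Gm23301 and Gm25894, from 0.16 to 0.26, were called over all 16 libraries and lost that call under several alternatives. Gm26224 of Gas5, the most abundant feature in 3 of these 4 libraries, had a log2 fold change of 0.16, and of -0.05 when scaled within class.

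There were 53 host genes for 2 or more of the tested snoRNAs, and in 11 of them B cells had 1 or more called higher and 1 or more called lower, among them Eif4a2, Hspa9, Nop56, Nop58, Rabggtb, Rack1, Rpl7a, Rps12, Snhg1 and Wdr43. The members of such a pair share a host gene and the same libraries. Of the 174 C/D snoRNAs 65 were higher and 26 lower, against 18.7% and 9.48% of all features. At such shares a host with several tested snoRNAs can hold both directions, and whether 11 exceeds that was not tested. With DESeq2 8 host genes had both directions, all 8 among the 11, and scaled within class 15 had both, 8 of them among the 11. Of the 22 snoRNAs that were the largest rise or fall of those hosts, 11 were called under each alternative run for them and without any 1 library.

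In Nop56, a core protein gene of C/D snoRNPs, Gm23187 had 61.5 and 63.3 CPM in B cells, against 29.6 and 31.5 CPM in T cells (log2 fold change 1.03 ± 0.10, adjusted p = 2.58e-05). Snord57 in the same gene had 8910 and 8919 CPM in B cells, against 12757 and 13728 CPM in T cells (-0.57 ± 0.04, adjusted p = 4.62e-06). The 2 moved in opposite directions with no overlap between cell types, and both calls held throughout. In Rack1, Snord95, whose human counterpart guides 28S methylation, fell by 0.73 with 9592 and 9629 CPM in B cells, against 15769 and 16039 CPM in T cells. Gm25296 in the same gene had a log2 fold change of 0.28, but it and Snord95 each have a similar copy in the annotation. Gm25296 lost its call with RLE size factors, scaled within class, with no low-count filter, with DESeq2 and without B replicate 1, B replicate 2 or T replicate 2 (highest adjusted p 0.275). In Wdr43, a ribosome biogenesis gene, Snord53 rose by 0.86 with 489 and 445 CPM in B cells, against 250 and 267 CPM in T cells. Snord92 and Gm22858 of Wdr43 had log2 fold changes of -0.55 and -0.40, and lost their calls without B replicate 2, T replicate 1 or CMP replicate 1, and Snord92 also without B replicate 1 or Myeloid replicate 1 (highest adjusted p without 1 library 0.268 for Snord92 and 0.12 for Gm22858). In Rpl7a, Gm22879 rose by 0.57 and held throughout, and Gm24134, at -0.37, lost its call without B replicate 2, T replicate 1, T replicate 2, CMP replicate 1 or Myeloid replicate 1 (highest adjusted p 0.239).

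Over all features 18.7% were higher and 9.48% lower. Of the 10 snoRNAs in Gas5, a host whose mature RNA is not translated, 7 were higher in B cells and none lower. Their log2 fold changes ran from -0.09 to 1.26. Scaled within class 5 were higher and 1 lower, and without overlaps or similar copies 4 of 8 were higher. Gm23212 of Gas5 rose by 0.92 and the interval named Mir5117, annotated as a snoRNA in Gas5, rose by 0.64. All 3 snoRNAs of Gnl3 were higher, Gm24916 by 1.25, Snord69 by 0.67 and Snord19 by 0.43, although Snord19 lost its call without B replicate 1 or T replicate 2. None of the 4 snoRNAs of Rpl13a was called, with log2 fold changes from 0.08 to 0.16, but 3 were higher by library totals and without GMP, MEP and Erythroid. Over all ribosomal protein hosts, 20 of 59 snoRNAs were higher and 6 lower, with a median of 0.11, where 65 of 174 C/D snoRNAs were higher and 26 lower, with a median of 0.12. Scaled within class 14 were higher and 14 lower, and without overlaps or similar copies 16 of 49 were higher and 1 lower.

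**Figure D4:**
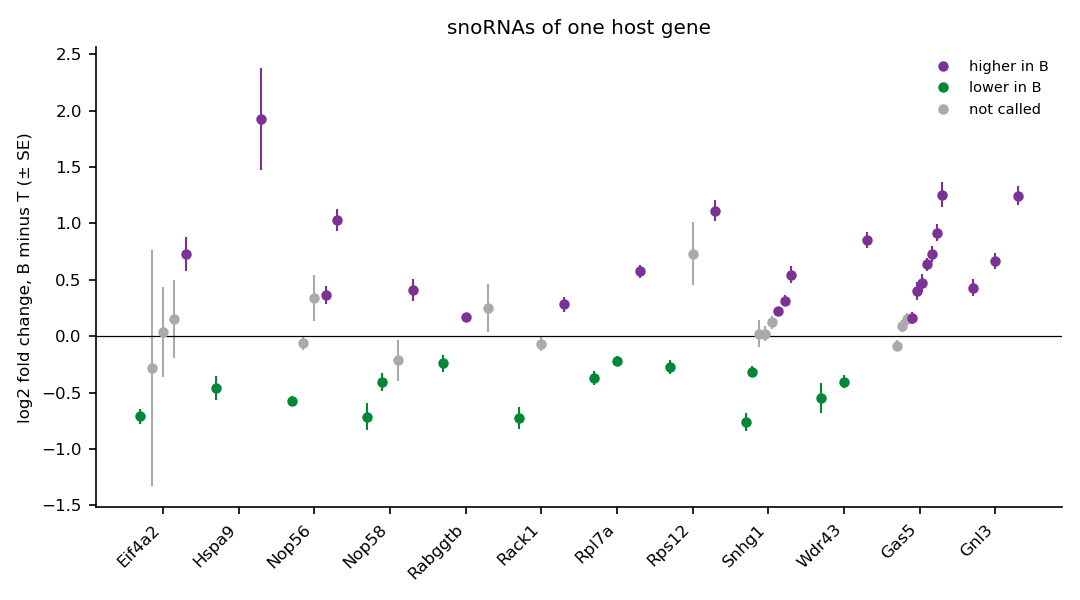
Each point is a tested snoRNA with its log2 fold change of B minus T (vertical) and SE (bar), placed under its host gene (horizontal), for 10 of the 11 hosts with calls in both directions and for Gas5 and Gnl3. In Nop56 the points run from -0.57 to 1.03, and in Gas5 and Gnl3 no snoRNA was called lower.

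H/ACA snoRNAs had 10 of 108 members higher in B cells and 1 lower, with a median of 0.23. The higher members were a smaller share than the 18.7% of all features that were higher. Snora57 had 55.6 and 69.7 CPM in B cells, against 38.7 and 38.8 CPM in T cells (log2 fold change 0.69 ± 0.14, adjusted p = 0.00385). The 1 lower member was Gm22676 at -0.66, which lost its call in 11 of the 16 fits that each left out 1 library (highest adjusted p 0.318). Scaled within class, which centres all snoRNAs together, 7 were higher and 10 lower, by library totals 15 were higher, and without B replicate 1 only 3 were higher. Without features that overlap another or have a similar copy, 1 of 55 was higher.

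The snoRNAs that act in rRNA cleavage had 5 of 19 intervals higher and none lower, with a median of 0.03. Of all features 18.7% were higher. Scaled within class 2 were higher, and of the 4 without a similar copy or overlap none was called. Snora73a, the U17 snoRNA, had 336 and 326 CPM in B cells, against 223 and 188 CPM in T cells (log2 fold change 0.69 ± 0.16, adjusted p = 0.00885). Snora73b rose by 0.84, Snord14c and Snord14d, of the U14 snoRNA, by 0.34 and 0.35, and Snord118, the U8 snoRNA, by 0.34. Each of these 5 has a similar copy in the annotation and lost its call without at least 1 of B replicate 1, B replicate 2 or T replicate 2, with a highest adjusted p of 0.15. Snord118, Snord14c and Snord14d also lost theirs when scaled within class and with no low-count filter, and Snord118 with RLE size factors (highest adjusted p 0.295, 0.213 and 0.25). The U3 intervals Rnu3b1 to Rnu3b4 and Rnu3a lay between -0.11 and 0.09, and none was called. The 45S pre-rRNA interval had 71326 and 86238 CPM in B cells, against 60822 and 61784 CPM in T cells (0.36 ± 0.10, adjusted p = 0.0222), a call that was lost with DESeq2 and without B replicate 2 or T replicate 2 (highest adjusted p without 1 library 0.0625).

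Among snRNAs, which build the spliceosome, 28 of 118 intervals were higher in B cells and 1 lower, against 18.7% and 9.48% of all features. Scaled within class, which centres the class, 9 were higher and 7 lower, and by library totals 34 were higher and 1 lower. Many of these intervals are near-identical copies between which reads could be split, and of the 17 with no similar copy or overlap 4 were higher and 1 lower. All 7 tested intervals with about the length of the U5 snRNA were higher, with a median of 1.36, and 6 were higher when scaled within class. This length group was formed after the values were seen. Over 28 snRNA intervals whose mean reached 10 CPM, length and log2 fold change had a Spearman correlation of -0.68, which was not tested. Rnu5g had 247 and 223 CPM in B cells, against 96.6 and 97.7 CPM in T cells (log2 fold change 1.27 ± 0.09, adjusted p = 2.88e-06). Gm25099, which has no similar copy, had 51.0 and 46.7 CPM in B cells, against 17.0 and 20.8 CPM in T cells (1.36 ± 0.15, adjusted p = 4.00e-05). Both kept their call when scaled within class. Of intervals with the length of U1, such as Rnu1a1 at 0.74, 9 of 23 were higher, and scaled within class 1 was, with the call of Rnu1a1 lost (adjusted p = 0.215). Of U2-length intervals 7 of 15 were higher, and scaled within class 1 was higher and 2 lower. Of U6-length intervals 3 of 56 were higher, and of U4-length intervals none of 6 was higher and 1 was lower.

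Of 3 tested snRNAs with roles outside the major spliceosome 2 were higher, where 18.7% of all features were higher. Rnu7, which guides the 3′ end processing of histone pre-mRNA, had 281 and 279 CPM in B cells, against 163 and 172 CPM in T cells (log2 fold change 0.74 ± 0.08, adjusted p = 5.24e-05). Rnu12 of the minor spliceosome had 195 and 208 CPM in B cells, against 120 and 126 CPM in T cells (0.71 ± 0.09, adjusted p = 0.000122), and has 3 similar copies. Both calls were lost when scaled within class, with adjusted p values of 0.154 for Rnu7 and 0.241 for Rnu12. Rnu11, also of the minor spliceosome, had a log2 fold change of 0.77 that was not called (adjusted p = 0.0526). The sequence of Rnu7 from GENCODE M21 is shown since its interval has no similar copy.
Rnu7, chr6:124741225-124741286, - strand: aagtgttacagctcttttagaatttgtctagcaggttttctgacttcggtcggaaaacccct

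Of the other small RNAs, Rn7sk, the scaffold that holds the elongation factor P-TEFb inactive, had 78.5 and 77.3 CPM in B cells, against 40.7 and 38.1 CPM in T cells (log2 fold change 0.98 ± 0.10, adjusted p = 2.75e-05). It was the 1 called member of 7 housekeeping small RNAs, among them the signal recognition particle RNAs Rn7s1 and Rn7s2 at 0.15 and 0.14 and the Y RNAs Rny1 and Rny3 at 0.39 and -0.68. Of 21 mitochondrial tRNAs 3 were higher, mt-Ta by 0.92, mt-Tv by 1.00 and mt-Ti by 1.30, and none was lower, a smaller share than the 18.7% of all features that were higher. mt-Ta kept its call in every alternative run for it, and mt-Tv and mt-Ti lost theirs without some single B or T libraries (highest adjusted p 0.0905 for mt-Tv and 0.126 for mt-Ti). mt-Rnr2, the large mitochondrial rRNA, had 211 and 183 CPM in B cells, against 120 and 133 CPM in T cells, a rise of 0.64 that was lost without B replicate 1 (adjusted p = 0.064). Both scaRNAs tested, Scarna10 and Scarna9, were not called, at 0.25 and 0.41.

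Of 201 named miRNA genes, 40 were lower in B cells and 4 higher, against 9.48% and 18.7% of all features. Their median was -1.02. Of the 201, 171 had a negative fold change. The count differed between alternatives. Scaled within class, which removes a shift common to the class, 34 were lower and 29 higher, with a median of -0.08. With the B and T libraries alone 106 of 170 were lower, with DESeq2 74 of 201, and without GMP, MEP and Erythroid 111 of 197. In those 3 populations the median log2 ratio of miRNA genes between replicates was -1.11 in GMP, 1.30 in MEP and -1.30 in Erythroid cells, against -0.11 in B cells and -0.20 in T cells. Left out singly, the B and T libraries gave 8 lower miRNA genes without B replicate 1, 11 without B replicate 2, 21 without T replicate 1 and 10 without T replicate 2.

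Mir30a had the largest fall among miRNA genes whose mean reached 10 CPM. It had 17.1 and 16.2 CPM in B cells, against 93.4 and 101 CPM in T cells (log2 fold change -2.55 ± 0.53, adjusted p = 0.00388). It was called under every alternative and without any 1 library. Mir148a had 525 and 558 CPM in B cells, against 2021 and 2342 CPM in T cells (-2.01 ± 0.52, adjusted p = 0.0146). Mir21a, the most abundant miRNA gene called, had 2881 and 3103 CPM in B cells, against 9109 and 10495 CPM in T cells (-1.71 ± 0.51, adjusted p = 0.0274). For each of these genes both B libraries lay below both T libraries. All 11 miRNA genes among the 12 largest falls kept their call under each alternative run for them, scaling within class included, but Mir30a was the only 1 to keep it without each single library, and the highest adjusted p among the others was 0.150.

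The lymphocyte list had 2 of 6 members lower and none higher, where 9.48% of all features were lower. Scaled within class 2 were higher and 2 lower, and with the B and T libraries only, as without GMP, MEP and Erythroid, 4 were lower. Mir150, a miRNA of mature lymphocytes, had 74.5 and 89.1 CPM in B cells, against 259 and 285 CPM in T cells (log2 fold change -1.73 ± 0.47, adjusted p = 0.0172). Mir342, also abundant in lymphocytes, fell by 1.98 with 13.4 and 18.9 CPM in B cells, against 64.9 and 62.5 CPM in T cells. Their calls were lost without B replicate 1, B replicate 2 or T replicate 2, and for Mir342 also without T replicate 1 (highest adjusted p 0.0943 for Mir150 and 0.150 for Mir342). Mir181a-1 and Mir181a-2 had log2 fold changes of -0.95 and -0.97, and Mir181b-1 and Mir181b-2 of 0.04 and 0.36, and none was called. Summed over the 6 genes the level was 221 and 245 CPM in B cells, against 540 and 590 CPM in T cells. All 6 were above 0 in every B and T library. Neither Mir142 nor Mir142b, of blood cells in general, was called over all 16 libraries. Both were lower with DESeq2, with the B and T libraries only and without GMP, MEP and Erythroid. Mir142 lies within the interval of Mir142b, so their sum covers 1 locus. That sum was at most 105 CPM in B cells, against at least 222 CPM in T cells.

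Of 4 miRNA genes linked to immune activation, 3 were lower, where 9.48% of all features were lower. Mir146 had 33.7 and 35.2 CPM in B cells, against 112 and 131 CPM in T cells (log2 fold change -1.82 ± 0.48, adjusted p = 0.0157). Mir155 fell by 1.08 with 5.57 and 6.10 CPM in B cells, against 12.2 and 12.5 CPM in T cells. Mir21a was the third, and Mir146b was not called, at -1.10. Scaled within class the call of Mir155 was lost (adjusted p = 0.748), and without B replicate 1 or B replicate 2 none of the 3 was called. All 4 were lower with DESeq2 and with the B and T libraries only.

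Of the miRNA genes placed on lists for other blood cells 3 were lower in B cells, where 9.48% of all features were lower. Their part in the results was not tested. Of 5 myeloid miRNA genes 2 were lower, Mir223 by 1.14 and Mir147 by 1.79, and the summed level was 311 and 335 CPM in B cells, against 661 and 772 CPM in T cells. Of the erythroid intervals, Mir451a/Mir451b fell by 1.44 and Mir144, at -2.57, was not called, and their sum was at most 12.7 CPM in B cells, against at least 30.2 CPM in T cells. All 3 of those calls were lost when scaled within class, and with the B and T libraries only all 5 myeloid and both erythroid intervals were lower. None of 6 stem and progenitor miRNA genes was called, though 2 were lower without GMP, MEP and Erythroid, with sums of 8.77 and 10.8 CPM in B cells, against 18.4 and 21.6 CPM in T cells. Mir125b-1 was at 0 in B replicate 2, and every other tested member of these 3 lists had counts in all 4 libraries.

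In the Mir23/24/27 clusters 5 of 7 intervals were lower, where 9.48% of all features were lower. Among the 5 were Mir24-1 by 2.24, Mir24-2 by 2.16, Mir27b by 1.62 and Mir23a by 1.58. Scaled within class 5 of 7 were lower too. Mir24-1 lies within the interval of Mir3074-1, on the other strand, so these 2 of the 5 are not separate loci. Mir24-2 overlaps another annotated feature. Without overlaps or similar copies 2 of 4 were lower. Mir24-2 kept its call without each single library, and the other 4 did not: Mir24-1 lost it without B replicate 1 (adjusted p = 0.0795), and Mir27b, Mir3074-1 and Mir23a without any 1 of at least 3 of the B and T libraries (highest adjusted p 0.0845, 0.108 and 0.155). Of 8 members of the Mir15/16 and Mir29 families 4 were lower, Mir16-2 by 2.03, Mir16-1 by 1.60, Mir29a by 1.73 and Mir29b-2 by 1.92, each of which lost its call on leaving out any of at least 3 libraries (highest adjusted p 0.189). Mir29b-2 lost its call in 4 of 9 other alternatives as well, with an adjusted p of up to 0.364. In both families together 6 of 8 were lower with the B and T libraries only. In the Mir30 family Mir30a and Mir30b were lower, by 2.55 and 1.86. Mir30d, Mir30c-2 and Mir30e/Mir30f had log2 fold changes of -0.60, -0.54 and -0.47 and were not called, and scaled within class they were higher in B cells, by 0.34, 0.40 and 0.47. With the B and T libraries only all 6 members of the family were lower.

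Of 11 let-7 intervals 2 were lower, Mirlet7b by 1.78 and Mirlet7c-1 by 1.57, both lost without any 1 of the B and T libraries (highest adjusted p 0.109 and 0.104). All 11 were lower with the B and T libraries only and without GMP, MEP and Erythroid. With DESeq2 6 were lower, and 3 were lower scaled within class. In the fit over all 16 libraries 9.48% of all features were lower. None of the 15 tested intervals of the Mir17-92 cluster and its paralogues, which promote lymphocyte survival and growth, was called, with a median of -0.59. Scaled within class 8 were higher and none lower, whereas with the B and T libraries only 1 was higher and 8 lower, without GMP, MEP and Erythroid 2 were higher and 8 lower, and with DESeq2 3 were lower. Mir182 of the Mir183 cluster had 0.474 and 0.626 CPM in B cells, against 6.20 and 4.17 CPM in T cells (log2 fold change -3.23 ± 0.72, adjusted p = 0.0062), a call lost without B replicate 1 (adjusted p = 0.059). Mir183 was not called, at -3.52 (adjusted p = 0.0588). Mir182 and Mir183 passed the filter on low counts only through the T libraries, where they are high. Their p values are therefore not separate support for a fall in B cells. Mir592 fell by 3.09 with 0.83 and 1.09 CPM in B cells, against 7.55 and 8.76 CPM in T cells, lost without any 1 of these 4 libraries (highest adjusted p 0.0984). Mir211 had no count in either B library and 24 and 16 counts in the T libraries, which makes it at least 7.40-fold lower in B cells, taking 3 counts in 1 library as the floor.

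The 4 named miRNA genes that were higher in B cells were Mir1983, Mir5099, Mir1291 and 1 of the intervals named Mir677, with log2 fold changes of 1.51, 1.15, 1.13 and 0.60. Mir1291 and that Mir677 interval overlap other annotated features. Mir1983 and Mir1291 lost their calls on leaving out any of several libraries, and Mir5099 without T replicate 2 (adjusted p = 0.0645). Of the intervals that the annotation types as miRNA but names otherwise, 24 of 67 were higher and 2 lower, with a median of 0.77. Of those 67, 47 have a similar copy. The shares over all features were 18.7% higher and 9.48% lower.

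Of the snoRNAs of the Dlk1-Gtl2 locus few reads were seen in either cell type. Of 8 listed intervals 3 had a count in B or T cells, with 10 and 2 counts in the B libraries and 8 and 10 counts in the T libraries in all, and none was tested. No difference was detectable at this depth.

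The 2 cell types were set beside the other 6 populations. Of the 140 features higher in B cells, T cells had the lowest mean of the 8 populations for 107, and B cells had the highest for 33. Over all 749 features tested, T cells had the lowest mean for 241 and B cells the highest for 76. Of the 71 features lower in B cells, T cells had the highest mean for 49 and B cells the lowest for 16, against 107 and 125 of all features. CLP, the common progenitor of lymphocytes, lay nearer to B than to T cells for 102 of the 140 and 61 of the 71, against 478 of all 749. The 140 and the 71 were chosen by the difference of B and T cells in these same libraries. That choice favours T or B cells at the extreme, so these shares cannot be read against those of all features. All of these are counts of means of 2 libraries and were not tested.

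In CLP Snord17 had 427 and 322 CPM, nearer to the 178 and 192 CPM of B cells than to the 2889 and 2450 CPM of T cells. Its level in the GMP pair was 612 and 1185 CPM, in the MEP pair 350 and 1302 CPM and in the Erythroid pair 1735 and 1237 CPM. Mir150 had at most 40.5 CPM in any library of the other 6 populations, below both B cells and T cells. Snord82 had its lowest level in T cells, and its level in B cells was second to CMP.

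**Figure D5:**
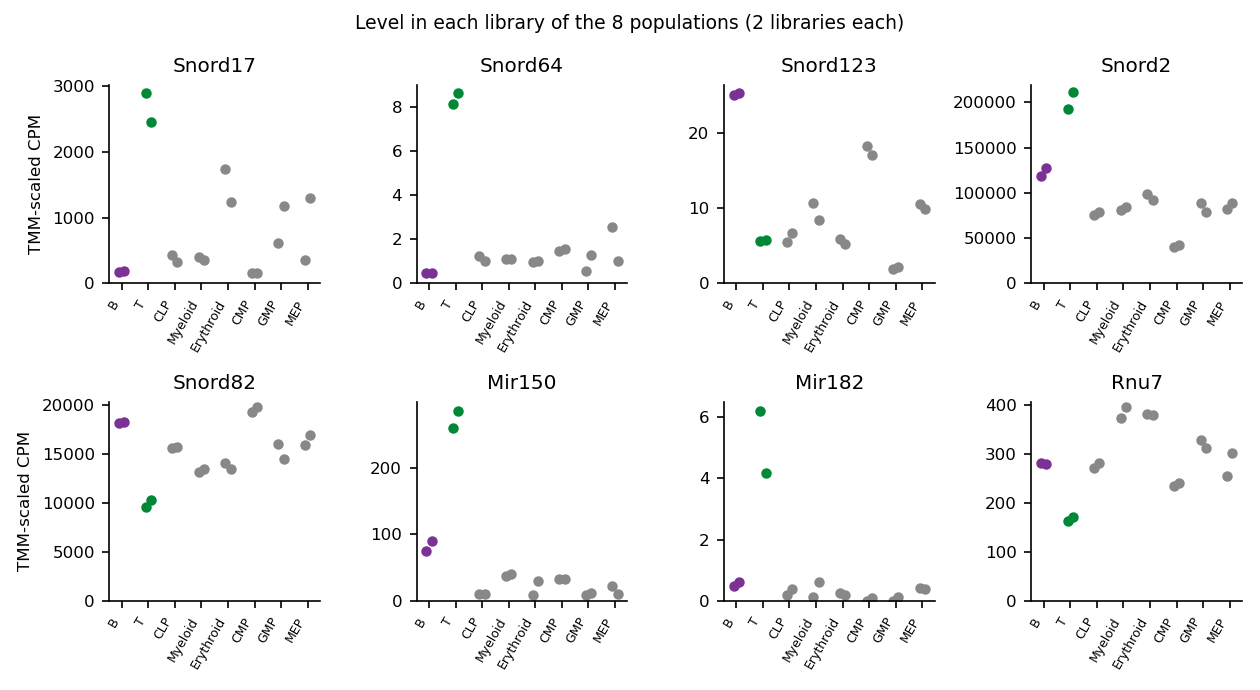
The TMM-scaled CPM (vertical, linear axis from 0) of 8 features is shown in each library of the 8 populations (horizontal), with B cells in purple, T cells in green and the others in grey. Snord17, Snord64, Snord2, Mir150 and Mir182 are highest in T cells, and Snord123 is highest in B cells.

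Of the 1235 intervals with a count in B or T cells, 367 were named miRNA genes. There were 28 features with counts in both B libraries and neither T library, and 7 of them were named miRNA genes. The highest was Gm44394 with 10 and 10 counts. There were 18 with counts in both T libraries and neither B library, and 12 of them were named miRNA genes. The highest was Mir211. All of these counts are low, and the shares were not tested.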

How the data were processed

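The deposited files hold raw counts per small RNA interval, with no normalization by the authors. The submitters' processing notes name Trimmomatic 0.38, Bowtie2 2.3.4.1 and GRCm38; counting program, annotation and strand are not given in the sources used here. In the B and T libraries 89.6% to 92.0% of nonzero counts were even, and halved counts were tried as an alternative. A missing interval was taken as 0. Of 1885 intervals 1884 matched GENCODE M21 by coordinates and 1, named by an accession, was treated as 45S pre-rRNA. Unnamed snoRNAs were classed by sequence boxes; Snord43, typed as miRNA, was counted as a C/D snoRNA, and intervals typed as miRNA without a miRNA name were kept apart. Similar copies had at least 95% identity over 90% of length.

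All 16 libraries were fitted with edgeR 4.0.16 in R 4.3.3 (filterByExpr at a minimum count of 10, TMM, 1 mean per population, 8 residual degrees of freedom), which was tested on simulated data; DESeq2 1.42.0 was an alternative. The SE is the log2 fold change over the square root of F. Named were the 12 largest rises and 12 largest falls whose mean reached 10 CPM without overlap of libraries, the 6 most abundant calls each way, members of lists of up to 12 and the largest rise and fall per host; others, among them Snord64 and Mir592, were chosen after their values were seen. Members and lists were chosen with earlier results of these data known.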

Additional observations from a re-analysis of the deposited data

How the results depend on the processing

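Alternatives moved several counts of calls by over 1.5 times. Scaled within class, 88 features and 9 snRNAs were higher, and 42 C/D snoRNAs were higher and 50 lower. Lower features numbered 151 with the B and T libraries only and 143 without GMP, MEP and Erythroid, where 23 H/ACA snoRNAs were higher. Lower miRNA genes numbered 106 and 111 under those settings, 74 with DESeq2 and 87 with no low-count filter, under which 10 C/D snoRNAs were lower. Without overlaps or similar copies 67 features were higher and 43 lower, and the numbers were 10 for lower C/D snoRNAs, 1 for higher H/ACA snoRNAs and 5 for higher snRNAs. Leaving out 1 library gave 85 to 161 higher and 19 to 83 lower features, 37 to 72 higher and 7 to 26 lower C/D snoRNAs, 3 to 13 higher H/ACA snoRNAs, 19 to 32 higher snRNAs and 8 to 57 lower miRNA genes. An alternative with 1 library left in a population assumes that it varies like the others. The cause of these changes was not tested. Scaled within class, signs turned for Gm26224 (-0.046), Gm24494 (-0.044), Mir181a-1 (0.00022), Mir139 (0.055), Mir99a (0.13), Mir30d (0.34), Mir30c-2 (0.40), Mir30e/Mir30f (0.47), Mir23b (0.11) and Mir27a (0.17). Leaving out 1 library, Vaultrc5 ran from -0.47 to 0.0064 and Scarna10 from -0.030 to 0.73, Mir181b-1 from -0.12 to 0.29, Mir100 from -0.19 to 0.76 and Mir125b-1 from -5.88 to 0.69. Mir125b-1 was at 0.65 scaled within class, and Mir181b-1 at -0.045 with a mean of at least 10 CPM. None of these 5 features was called over all 16 libraries. Of the other values and small counts, 3061 kept direction and side of the threshold, 298 lost a call, 97 gained one and 45 moved. At this depth Mir125b-1 had no count in B replicate 2, and its fold change was not resolved.

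B and T libraries share replicate numbers only. The replicate differences of B and T correlated at 0.196 over 320 features (Spearman). In pairs of populations without MEP the correlation was always positive, from 0.105 to 0.538. In pairs with MEP it was always negative, from -0.128 to -0.564. Same-numbered libraries thus deviated together in part, with MEP in the opposite sense, and the reason was not tested. The labels name no block, so the numbers were not taken as pairs. With a replicate block of the same sign in all populations, MEP included, 140 features were higher and 69 lower.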
